A study of Danio rerio with 6 samples.

Results

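A set of 10 genes of the pituitary was followed in RNA from zebrafish (Danio rerio) heads. These are the hormone genes pomca, cga, tshba, lhb, fshb, gh1, prl, smtla and smtlb, and pou1f1, a transcription factor of several hormone cell types. They were chosen by gene name, and all 10 names were found among the 32520 genes counted. The names were proposed with earlier results of these same libraries known. Which values weighed in that choice is not recorded and the rule has no threshold, so the genotype and replicate values of these 10 genes are given as a description.

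The heads came from larvae at 3 days post fertilization carrying the srrm4[y712] mutation on both chromosomes and from wild-type siblings. The Srrm4 protein regulates splicing in neurons, where it favours very short exons. Polyadenylated RNA was sequenced in 3 libraries per genotype, labelled replicate 1, 2 and 3, with 52510621 to 101032166 counts each. The labels do not name the lesion in the allele, how many heads went into a library, or whether the replicates were separate clutches, so the spread between replicates may be partly technical. Srrm4 itself had 954 to 6071 wild-type counts and 843 to 6286 mutant counts, with the fewest in replicate 1 of each genotype. Scaled to library size, it was higher in the mutant by log2 ratios of 0.36, 0.13 and 0.07 in replicates 1, 2 and 3. The genotypes overlapped, so its transcript gives no check of the genotype labels.

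The pituitary is a small gland under the brain whose endocrine cells each secrete 1 or a few hormones. In teleost fish these are corticotropes and melanotropes (products of proopiomelanocortin), thyrotropes (thyroid-stimulating hormone), gonadotropes (luteinizing and follicle-stimulating hormone), somatotropes (growth hormone), lactotropes (prolactin) and somatolactotropes (somatolactin). Thyroid-stimulating hormone and both gonadotropins share an alpha subunit and differ in their beta subunit, while growth hormone, prolactin and somatolactin form a single protein family. Hypothalamic factors raise or lower the release of each hormone, and the glands that the hormones act on feed back on the pituitary.

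The pituitary signal was a very small share of each library. Wild-type replicates 1, 2 and 3 held 1697, 2561 and 2780 counts of the 10 genes together, against 958, 2157 and 2415 for the mutants. After scaling to library size (CPM, with the TMM factors of edgeR), their sum was 25.9, 24.97 and 25.2 for the wild-type libraries and 21.2, 24.1 and 22.3 for the mutant ones. Each mutant library was the lower of its pair in this sum, which pomca led. Without pomca, a sum added after the values were seen, it was 14.9, 14.6 and 15.8 CPM for wild-type and 12.6, 15.6 and 14.7 CPM for mutant libraries, and pair 2 turned round. Below, values listed in threes follow replicates 1, 2 and 3, and a mean is given with its SD over the 3 libraries of a genotype (n = 3 each), wild-type first. In bulk heads, fewer cells of a type and less RNA per cell cannot be told apart. CPM and counts are not corrected for transcript length, because no lengths were at hand. Where genes are ordered by CPM or counts below, that is an order of reads and not of transcript numbers.

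**Figure D1:**
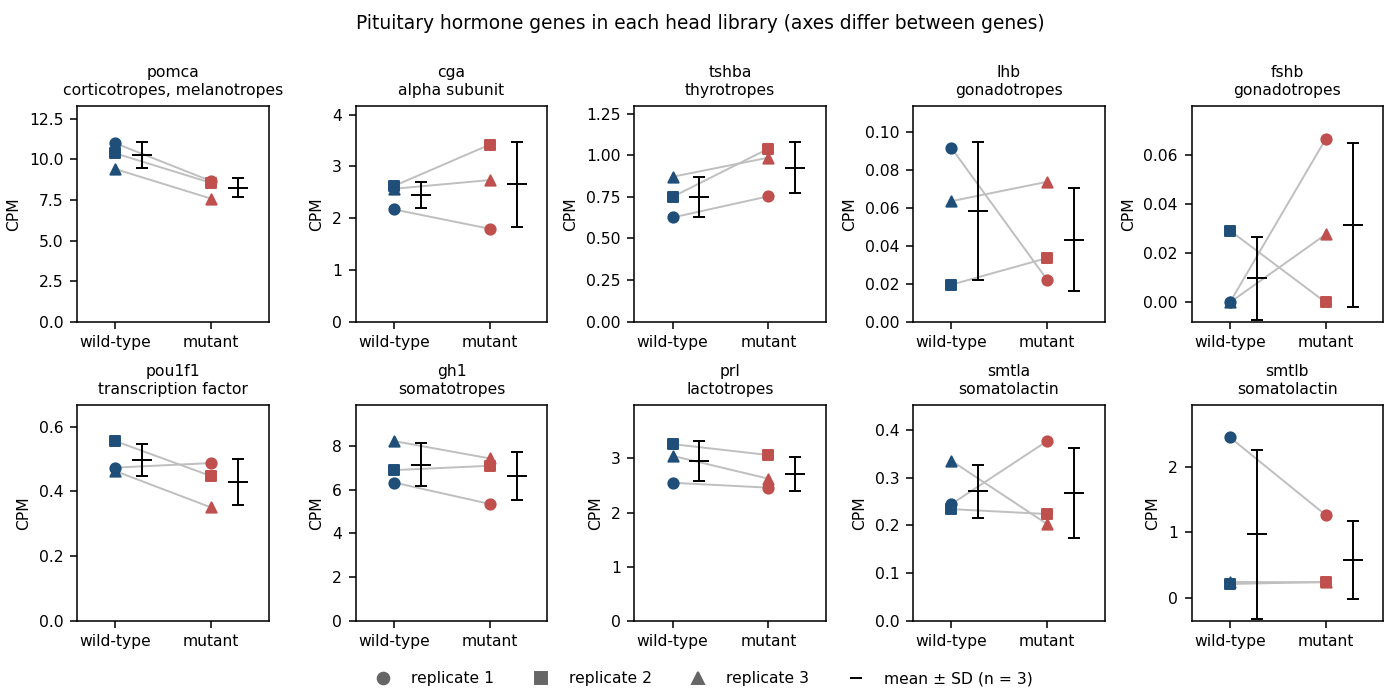
CPM of each gene in the wild-type (blue) and mutant (red) libraries, with a symbol and a grey line per replicate number and the mean ± SD of 3 libraries beside them; the vertical axes differ between genes. The 3 pomca values of the mutant lie below the 3 wild-type values, and smtlb is high in both replicate 1 libraries.

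The stress and pigment hormone gene pomca was the only 1 of the 10 whose mutant and wild-type libraries did not overlap. Pomca (ENSDARG00000043135) encodes proopiomelanocortin, the precursor of adrenocorticotropic hormone and melanocyte-stimulating hormone. Wild-type libraries held 720, 1065 and 1037 counts, or 11, 10.4 and 9.41 CPM. Mutant libraries held 391, 765 and 823 counts, or 8.67, 8.56 and 7.58 CPM. All mutant libraries were therefore below all wild-type libraries, and each lower than its same-numbered partner, by log2 ratios of -0.34, -0.28 and -0.31. The wild-type mean was 10.3 ± 0.80 CPM and the mutant mean 8.27 ± 0.60 CPM.

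This difference in pomca did not pass the test over all genes. The edgeR quasi-likelihood fit gave a log2 fold change of -0.31 (SE 0.13, 95% interval -0.63 to 0.01, adjusted p 1). With the replicate number as a block, the estimate was the same and its spread smaller, at -0.31 (SE 0.066). That is 0.807-fold with a 95% interval from 0.723 to 0.899, at an edgeR adjusted p of 0.875. DESeq2 with the block gave a similar estimate with a larger SE, at -0.31 (SE 0.12). Of all 24765 genes tested, 2.04% had no overlap between the genotypes, beside 1 of the 8 members that passed the filter on low counts. Counting error alone is about 5.06% at the lowest pomca count. Leaving out each library in turn gave log2 fold changes from -0.37 to -0.25.

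Of the other corticotrope pathway genes described here, crha, a low gene given further below, had groups that did not overlap, and pomcb, tbx19, crhb and star overlapped. The second proopiomelanocortin gene, pomcb, averaged 0.685 ± 0.19 CPM for wild-type against 0.651 ± 0.18 CPM for mutant heads. Tbx19, the T-box factor that turns on POMC in mouse corticotropes, measured 0.466 ± 0.14 and 0.578 ± 0.27 CPM. Crhb, which encodes corticotropin-releasing hormone, measured 3.02 ± 0.68 and 2.89 ± 0.87 CPM. Mc2r, the adrenocorticotropic hormone receptor of the interrenal gland (the adrenal counterpart of fish), had 0 to 8 counts per library and was not tested. Star, which brings cholesterol into mitochondria for steroid synthesis, measured 3.82 ± 0.72 and 4.66 ± 0.20 CPM, with the mutant library higher in 2 of 3 pairs. Its blocked log2 fold change of 0.32 (SE 0.13) was the highest of the 21 target gland genes tested (list below). The steroid synthesis genes of that list went both ways. Blocked values were positive for cyp17a1 (0.19), cyp11a2 (0.14) and hsd3b1 (0.04), and negative for cyp11a1 (-0.25) and cyp11c1 (-0.12). Their groups overlapped too. Which tissue the counts of mc2r, star and these genes came from was not tested.

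Pomca is also expressed in neurons of the hypothalamus, so the level in a whole head is a sum over both sources. A list of 10 hypothalamic markers, all detected and tested, summed to 137.7 to 174.7 CPM in wild-type and 139.2 to 208.1 CPM in mutant libraries. In the blocked edgeR fit 5 of them were higher and 5 lower. Otpa and otpb, named after their values were seen, led the sum at means of 69.0 and 49.7 CPM. Otpa was higher in the mutant of 2 of 3 pairs, most in pair 2 (64.2 CPM for wild-type and 92.4 CPM for mutant). The part of hypothalamic neurons in the pomca value was not tested.

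The thyrotrope gene tshba had values of the opposite sign, with groups that overlapped. Tshba (ENSDARG00000033726), the beta subunit of thyroid-stimulating hormone, had 41, 77 and 96 counts (0.626, 0.751 and 0.871 CPM) among wild-type libraries and 34, 93 and 107 counts (0.754, 1.04 and 0.986 CPM) among mutants. The mutant library was the higher of each pair, by log2 ratios of 0.26, 0.46 and 0.17, but mutant replicate 1 lay within the wild-type range. The log2 fold change was 0.31 (SE 0.25, edgeR adjusted p 1) and 0.31 with the block (SE 0.19, 95% interval -0.15 to 0.76). That is 1.24-fold (0.900 to 1.70), on counts whose counting error reaches 17.2%.

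The alpha subunit gene did not move one way across the pairs. Cga (ENSDARG00000040479) pairs with the beta subunits of thyroid-stimulating, luteinizing and follicle-stimulating hormone. It had 142, 269 and 283 counts (2.17, 2.62 and 2.57 CPM) for wild-type and 81, 306 and 297 counts (1.80, 3.42 and 2.74 CPM) for mutant libraries. The mutant was lower in pair 1 and higher in pairs 2 and 3, and the groups overlapped. The log2 fold change was 0.12 (SE 0.26, edgeR adjusted p 1).

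Gonadotropin beta subunits were at or near the limit of detection. Lhb (ENSDARG00000099363), the luteinizing hormone subunit, had 6, 2 and 7 wild-type counts and 1, 3 and 8 mutant counts. Fshb (ENSDARG00000010841), the follicle-stimulating hormone subunit, had 0, 3 and 0 wild-type counts and 3, 0 and 3 mutant counts. Over all 6 libraries that is 27 lhb counts, with an exact 95% Poisson interval of 17.8 to 39.3, and 9 fshb counts (4.12 to 17.1). In the 3 libraries with no fshb count, the exact interval reaches 3.69 counts each, or 0.0335 to 0.0564 CPM. Such intervals cover counting error only, and reads without molecular identifiers are not independent molecules. Neither gene passed the filter, so no fold change is given and a difference was not detectable at this depth. In the same libraries cga had 81 to 306 counts, and the releasing hormone genes gnrh2 and gnrh3 had 56 to 138 and 121 to 238.

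Somatotropes and lactotropes were represented by gh1 and prl, whose levels overlapped between the genotypes. Gh1 (ENSDARG00000038185), growth hormone, had 414, 707 and 906 counts (6.32, 6.89 and 8.22 CPM) for wild-type and 241, 634 and 806 counts (5.34, 7.09 and 7.43 CPM) for mutant libraries. Both genotypes were lowest in replicate 1 and highest in replicate 3. With the block the log2 fold change was -0.11 (SE 0.086), or 0.928-fold with a 95% interval from 0.805 to 1.07 (edgeR adjusted p 0.939). A change of gh1 to under 0.805-fold or over 1.07-fold lay outside that blocked interval. Without the block, gh1 had -0.11 (SE 0.19), and its 95% interval, from -0.56 to 0.34 in log2, reached further on both sides.

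Prl (ENSDARG00000037946), the prolactin gene, which in fish acts on salt and water balance, had 167, 335 and 336 counts (2.55, 3.27 and 3.05 CPM) for wild-type. The mutant libraries held 111, 274 and 285 counts (2.46, 3.06 and 2.63 CPM). The mutant was the lower of each pair, by log2 ratios of -0.05, -0.09 and -0.21. The genotype means, 2.96 and 2.72 CPM, lay closer than the SD of 0.366 CPM between the wild-type libraries. With the block the log2 fold change was -0.13 (SE 0.11, 95% interval -0.39 to 0.14, edgeR adjusted p 0.939). Without it, prl had -0.12 (SE 0.18) and a wider 95% interval from -0.56 to 0.32. The second prolactin gene, prl2, averaged 0.235 ± 0.017 CPM for wild-type against 0.277 ± 0.060 CPM for mutant heads.

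Pou1f1 (ENSDARG00000058924), the POU-domain factor needed for somatotropes, lactotropes and thyrotropes, was at 31, 57 and 51 counts for wild-type and at 22, 40 and 38 for mutant libraries. This made 0.497 ± 0.051 CPM for wild-type against 0.428 ± 0.071 CPM for mutants. The mutant was slightly higher in pair 1 and lower in pairs 2 and 3, and mutant replicate 1 (0.488 CPM) lay within the wild-type range. With the block the log2 fold change was -0.25 (SE 0.26, 95% interval -0.85 to 0.36).

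The somatolactin genes are a pituitary family of fish, best known from the intermediate lobe and from pigment cell control in medaka. Smtla (ENSDARG00000038191) had 16, 24 and 37 wild-type counts and 17, 20 and 22 mutant counts, or 0.271 ± 0.056 against 0.268 ± 0.095 CPM. The pairs went in different directions, with log2 ratios of 0.58, -0.06 and -0.67.

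Smtlb (ENSDARG00000017251) was set apart by replicate number rather than by genotype. Wild-type libraries held 160, 22 and 27 counts (2.44, 0.215 and 0.245 CPM), and mutant libraries 57, 22 and 26 counts (1.26, 0.246 and 0.240 CPM). Both replicate 1 libraries were high and the other 4 lay together. Within replicate 1 the wild-type level (exact 95% Poisson interval 2.08 to 2.85 CPM) and the mutant level (0.957 to 1.64 CPM) had intervals that did not overlap. These cover counting error only, so they set 1 library against another and not the genotypes. The genotype estimate followed that library: the log2 fold change was -0.77 (SE 1.2), -0.40 with the block (SE 0.30), 0.08 with the block without pair 1, and 1.27 without wild-type replicate 1 alone.

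**Figure D2:**
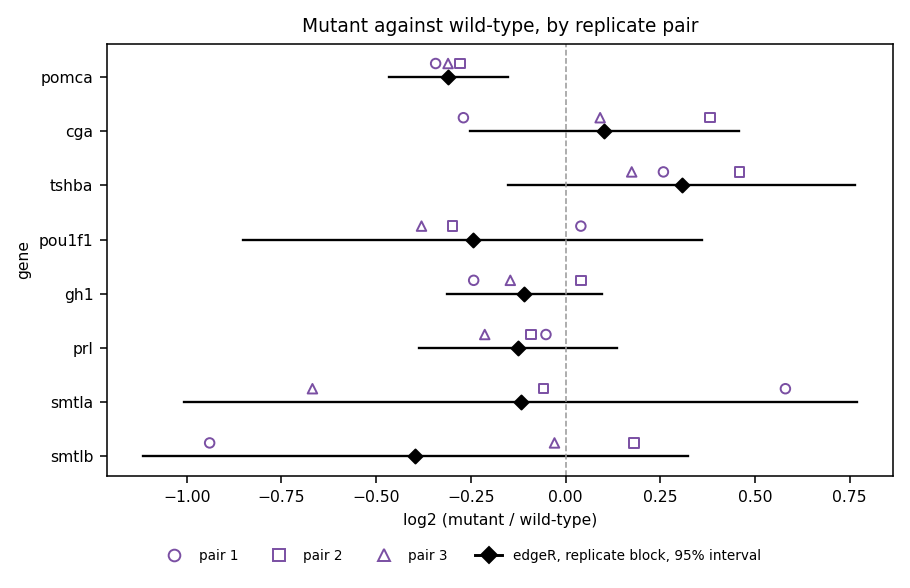
Log2 ratio of mutant to wild-type for the 8 genes tested: open symbols give each replicate pair (log2 CPM with a prior count of 2), and diamonds with lines give the edgeR estimate with the replicate block and its 95% interval. The pomca pairs lie together between -0.34 and -0.28, while those of smtla spread from -0.67 to 0.58.

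Across the 8 tested genes, 0 passed an adjusted p of 0.05 in any fit. EdgeR called 0 of 24765 genes (0%) without the block, with 70 genes and none of the 8 at an unadjusted p under 0.05. With the block it called 0% again, with 1138 genes at an unadjusted p under 0.05, or 4.6% of those tested, among them pomca alone of the 8. DESeq2 called 0 genes without the block and 18 with it (0.0756% of the genes with an adjusted p), none of them a member. The blocked edgeR adjusted p of the 8 ran from 0.875 to 0.983. Among the 8, pomca and prl were lower in the mutant library of all 3 pairs and tshba was higher, while 13.8% of all genes tested were lower and 13.1% higher in all 3. The median log2 fold change of the 8 was -0.11, or -0.12 with the block, beside 0.00 for all genes tested. The pair medians were -0.15, -0.01 and -0.18. No member lies on the chromosome of srrm4 in the RefSeq annotation of GRCz12tu, and none is the next gene to another.

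Ratios of counts between 2 hormone genes in the same library need no scaling. The prl to gh1 ratio had nearly the same mean in both genotypes and varied between libraries. It was 0.403, 0.474 and 0.371 for wild-type libraries and 0.461, 0.432 and 0.354 for mutant ones, with means of 0.416 ± 0.053 and 0.416 ± 0.055. The mutant ratio was 1.14 times that of its wild-type partner in pair 1, 0.912 times in pair 2 and 0.954 times in pair 3, so the pairs went in different directions.

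The ratio of pomca to gh1 was lower in the mutant of each pair. It was 1.74, 1.51 and 1.15 for wild-type and 1.62, 1.21 and 1.02 for mutant libraries. The genotypes overlapped, and replicate 1 had the highest ratio of each. The pomca to prl ratio was likewise lower in each mutant library than in its partner, at 4.31, 3.18 and 3.09 for wild-type and 3.52, 2.79 and 2.89 for mutants. Tshba to cga was higher in each mutant library than in its partner. It was 0.289, 0.286 and 0.339 for wild-type and 0.420, 0.304 and 0.360 for mutants. The factor was 1.45 in pair 1, on 34 tshba and 81 cga counts in the mutant, and 1.06 in pairs 2 and 3 each. In the pomca to prl and tshba to cga ratios the genotypes overlapped too. Both pomca ratios rest on the same pomca counts, so they are no second measurement of pomca. The tshba to cga ratio likewise rests on the tshba counts given above and is no second measurement of tshba.

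**Figure D3:**
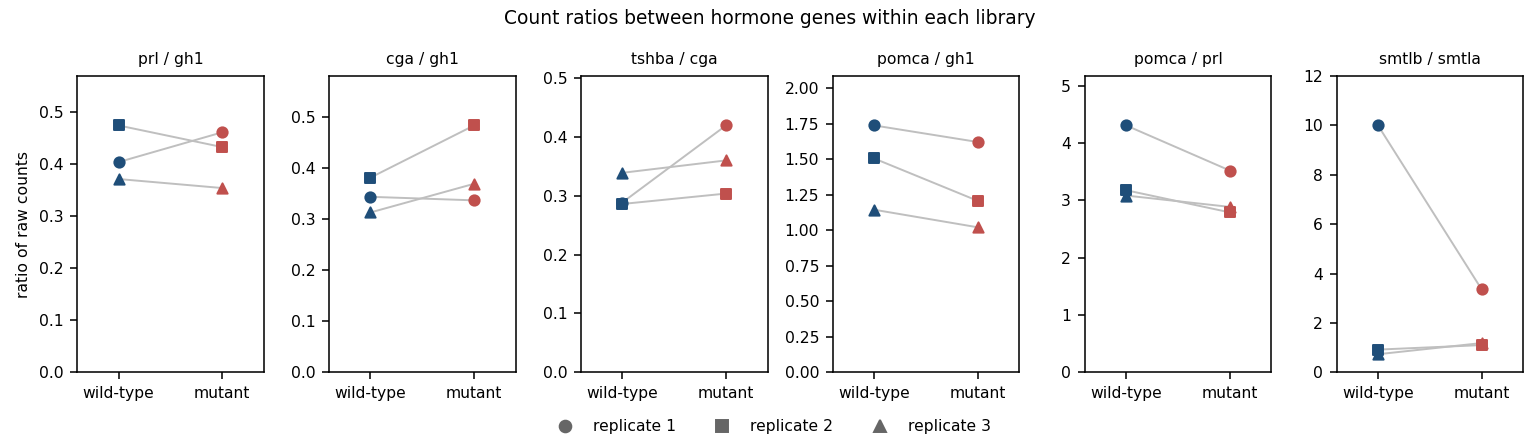
Ratio of raw counts between pairs of hormone genes in each library, with a symbol and a grey line per replicate number (wild-type blue, mutant red). The prl to gh1 ratio stays between 0.354 and 0.474, the pomca ratios are lower in the mutant of each pair, and smtlb to smtla reaches 10 and 3.35 in the replicate 1 libraries.

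Replicate 1 differed from replicates 2 and 3 in markers of several tissues, and of the pituitary genes smtlb stood out there. Posterior hox genes, not typical of a head, were counted in all libraries: the list (23 genes of groups 9 to 13, 16 of them tested, none at 0 in all libraries) summed to 134.5 and 119.6 CPM in wild-type and mutant replicate 1, and to 14.6 to 21.8 CPM in the other 4 libraries. These genes pattern the trunk and tail. The 12 skeletal muscle markers summed to 73630 and 74320 CPM against 10360 to 18560, and the 12 neuron markers to 2432 and 2451 CPM against 3886 to 4140. Smtlb was higher in replicate 1 by a log2 ratio of 3.29 for wild-type and 2.27 for mutant heads, and it alone of the 8 exceeded 2-fold. Of all genes tested, 6.84% were higher in replicate 1 by more than 2-fold, and 6.84% were lower by as much, with no member among the latter. In wild-type and mutant replicate 1 smtlb was at 2.44 and 1.26 CPM, a wider gap than in the posterior hox and muscle sums. The part of trunk tissue in the smtlb value was not tested.

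The other tested pituitary genes differed by less than 2-fold between replicate 1 and the rest in both genotypes. Without smtlb, the members summed to 23.5 and 20.0 CPM in wild-type and mutant replicate 1 and to 22.0 to 24.98 CPM in the others. Averaged over the genotypes, the log2 ratio was -0.51 for cga, -0.39 for tshba, -0.35 for gh1, -0.25 for prl, 0.13 for pomca and 0.10 for pou1f1. Cga, tshba, gh1 and prl were lower in replicate 1 in both genotypes, with cga log2 ratios of -0.26 (wild-type) and -0.76 (mutant), and pomca was higher in both. Smtla went in opposite directions, at -0.18 in wild-type and 0.76 in mutant heads, on 16 and 17 counts in replicate 1. Pou1f1 did so too, at -0.09 in wild-type and 0.29 in mutant heads. The neuron marker list had a median of -0.67, with 11 of 12 genes lower, and the median of all genes tested was -0.01.

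**Figure D4:**
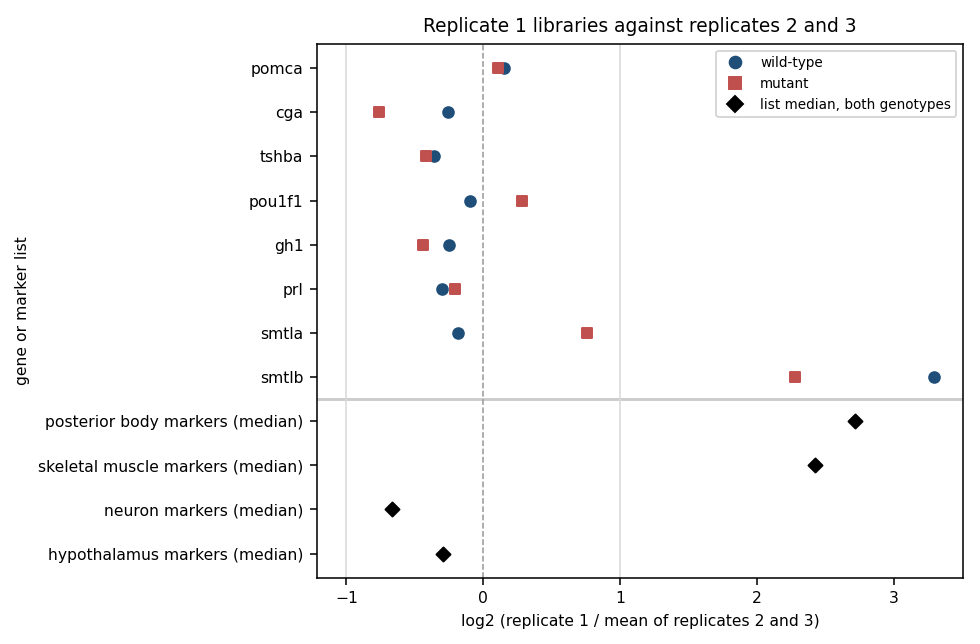
Log2 ratio of replicate 1 to the mean of replicates 2 and 3 for each tested gene in wild-type (circles) and mutant (squares), and the median over the genotypes for 4 marker lists (diamonds); faint lines mark 2-fold. Smtlb lies at 3.29 in wild-type and 2.27 in mutant, while the other genes lie between -0.76 and 0.76. The medians, averaged over the genotypes, are 2.72 for posterior body and 2.42 for skeletal muscle markers.

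A further 7 lists covered the pituitary axes, from hypothalamic factors to target glands, and 89 of their 93 matched genes were tested. The lists go by role in the axes, and which tissues in the libraries expressed their genes was not tested. With the block, edgeR called 0 of the 89, DESeq2 called 0, and 5 had an unadjusted edgeR p under 0.05, beside 4.6% over all genes. Of the 89, 16 were lower and 11 higher in the mutant of all 3 pairs, beside 13.8% lower and 13.1% higher over all genes. For 3 genes, all higher in the mutant, the groups did not overlap, beside 2.04% over all genes, and they are named after their values were seen. Nr5a1a, a steroidogenic factor gene whose mouse counterpart regulates gonadotrope genes, was at 0.275, 0.380 and 0.381 CPM for wild-type and 0.510, 0.749 and 0.544 CPM for mutant libraries. Its counts were 18 to 67 and its blocked log2 fold change 0.78 (SE 0.26, edgeR adjusted p 0.939). Crha, a second corticotropin-releasing hormone gene, had 2, 6 and 11 wild-type counts and 6, 13 and 15 mutant counts, with a blocked log2 fold change of 1.05 (SE 0.53). Adcyap1a, which like adcyap1b encodes a pituitary adenylate cyclase-activating peptide, was at 2.98 to 3.12 CPM for wild-type and 3.25 to 3.48 CPM for mutants. The genes at an unadjusted p under 0.05 were nr5a1a, sst1.2, scg2b, dio3b and the gonadotropin-releasing hormone receptor gnrhr4, the last with a blocked log2 fold change of -0.59 (SE 0.19, edgeR adjusted p 0.939).

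Transcription factors of the pituitary had 0 of 16 genes called, 11 of them higher and 5 lower with the block, at a median log2 fold change of 0.04. Isl1, a LIM-homeodomain factor, averaged 115.7 ± 9.2 CPM for wild-type against 109.9 ± 14 CPM for mutant heads. Eya1, a coactivator of placode development, averaged 74.7 ± 15 against 75.8 ± 13 CPM. Both, named for their high mean CPM in the list, are also expressed in many other head tissues.

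Hypothalamic releasing and inhibiting factors had 0 of 14 tested genes called, with 6 higher and 8 lower and a median of -0.02. Adcyap1b averaged 90.95 ± 30 against 89.97 ± 30 CPM. The somatostatin gene sst1.1, whose peptide inhibits growth hormone release in vertebrates, averaged 8.72 ± 0.59 against 8.58 ± 0.42 CPM. Sst1.2, the next somatostatin gene, was higher in the mutant of each pair, with a blocked log2 fold change of 0.19 (SE 0.071, edgeR adjusted p 0.939). Thyrotropin-releasing hormone (trh) measured 4.80 ± 0.50 and 4.64 ± 0.57 CPM.

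Pituitary receptors for those factors had 0 of 16 genes called (6 higher, 10 lower, median -0.07). The corticotropin-releasing hormone receptor crhr1 averaged 7.31 ± 3.8 against 7.05 ± 3.4 CPM, and it was lower in replicate 1 by a log2 ratio of -1.57. The somatostatin receptor sstr5 measured 5.83 ± 1.3 and 5.52 ± 1.1 CPM, and the dopamine receptor drd2b 4.42 ± 1.1 and 4.16 ± 1.3 CPM. Receptors of the pituitary hormones had 0 of 11 tested genes called (4 higher, 7 lower, median -0.06). Among them the growth hormone receptors ghrb and ghra averaged 13.5 ± 3.0 and 5.01 ± 0.67 CPM for wild-type, against 15 ± 1.8 and 5.28 ± 1.5 CPM for mutants. The prolactin receptor prlra averaged 9.74 ± 2.5 against 9.64 ± 2.9 CPM.

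Target gland genes had 0 of 21 called (11 higher, 10 lower, median 0.02), and some separated the replicates more than any hormone gene but smtlb. Thyroglobulin (tg), the thyroid hormone precursor, was at 3.79, 16.3 and 20.4 CPM for wild-type and 4.17, 13.8 and 17.9 CPM for mutant libraries, a log2 ratio of -2.08 for replicate 1, while that of tshba was -0.39. Dio3b, a deiodinase that inactivates thyroid hormone, went the other way, at 14.3 and 13.2 CPM in replicate 1 and 4.14 to 6.35 CPM in the other libraries. Fkbp5, a glucocorticoid-induced co-chaperone, was highest in replicate 2 of both genotypes (116.1 and 128.1 CPM) and lowest in replicate 3 (36.3 and 44.6 CPM). Pomca in replicate 2 was 10.4 and 8.56 CPM, between the other replicates of its genotype. A link between fkbp5 and pomca was not tested. Tg and dio3b were named after their values were seen. Beside fkbp5, these genes led that list in CPM: the glucocorticoid receptor gene nr3c1 measured 77.6 ± 8.2 and 79.2 ± 7.3 CPM, and igfbp2a, which binds insulin-like growth factors, 67.0 ± 12 and 64.7 ± 11 CPM.

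Genes of the secretory pathway that endocrine cells share with neurons had 0 of 9 called (3 higher, 6 lower, median -0.06). Carboxypeptidase E (cpe) averaged 458.2 ± 165 against 438.1 ± 155 CPM. Of the secretory granule genes, scg3 averaged 113.2 ± 25 against 106.6 ± 23 CPM and scg2b 110.2 ± 39 against 102.7 ± 37 CPM. All 3 were lower in the mutant of each pair. Their blocked log2 fold changes were -0.06 (SE 0.034), -0.09 (SE 0.039) and -0.11 (SE 0.038), at an edgeR adjusted p of 0.939 each. Of the 9 genes, 4 were lower and 1 higher in the mutant of all 3 pairs, beside 13.8% lower and 13.1% higher over all genes. The higher gene was scgn, named after its values were seen, at a blocked value of 0.12 (SE 0.10). The prohormone convertase pcsk1, which cuts proopiomelanocortin, had a blocked value of 0.04 (SE 0.062), and pcsk2 one of -0.08 (SE 0.075).

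The hormone genes fell into patterns across the 6 libraries that are given as a description, since all points share the replicate and genotype structure. In log2 CPM, cga, gh1, prl and tshba correlated positively with each other, at Pearson's r from 0.33 to 0.74. Smtlb correlated with those 4 at -0.77 to -0.74. Pomca correlated at 0.77 with pou1f1 and at -0.81 with tshba. The other genes most like pomca were ptgir (r = 0.99), a prostacyclin receptor gene, and si:dkey-98f17.3 (r = 0.99). For gh1 they were rcn3 and CABZ01071061.1, for prl zgc:110789 and BX548015.2, and for cga si:dkey-51a16.9 and zgc:112332, all at r of 0.99 or 1.00 over 6 libraries, the highest among 24765 genes. Like pomca, ptgir and si:dkey-98f17.3 were lower in every mutant library than in every wild-type library, beside 2.04% of all genes tested with no overlap. Both were picked for their likeness to pomca over these same libraries. Their split thus follows from the choice and is no second measurement of a genotype difference.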

How the data were processed

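Counts per Ensembl gene are used as the authors deposited them. The submitters' processing notes list STAR 2.7.3, Subread, featureCounts 1.6.4, DESeq2 and the build GRCz11, with no role for each; neither strand setting nor annotation release is given in the sources used here. A deposited table of normalized counts was not used. Per the labels, RNA was isolated with 1 of 2 kits, and which library used which is not given. No library pair was a duplicate (chi-square per gene at least 4.78).

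The genotypes were compared over all genes in edgeR 4.0.16 (R 4.3.3): TMM, filterByExpr by genotype (24765 of 32520 genes), robust quasi-likelihood F test, 2-sided, Benjamini-Hochberg adjusted p under 0.05. CPM used the TMM factors, and log2 CPM a prior count of 2. Alternatives were the replicate block, DESeq2 1.42.0, other size factors, no filter, and leaving out each library or pair. An exact permutation test of 3 against 3 libraries cannot go below 0.1 and was not used. The edgeR fits alone were tried on simulated counts with changes of 2-fold or more. Smaller changes and DESeq2 were not tried.

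Replicate numbers, from the labels, were taken as pairs, since deviations of same-numbered libraries correlated at 0.863, 0.579 and 0.744. Replicates 2 and 3 also correlated across numbers, at 0.365 (wild-type 3 with mutant 2) and 0.418 (wild-type 2 with mutant 3). The other unlike numbers correlated negatively, from -0.730 to -0.581. Deviations were taken from each genotype's mean, so positive values for like numbers bring negative ones among unlike numbers. The pairing was thus chosen from the same data that the block was then fitted to. Members and gene lists were chosen with earlier results of these data known. Besides the members, the text names the 3 genes of each axis list with the highest mean CPM, the 2 genes most like each of the 4 members with the highest mean CPM, and genes said to be named after their values were seen; other single genes of a list were named for their role. Some genes of the lists that these rules would name are not reported here. Names were matched by the deposited gene names, 2 by Ensembl identifier and 1 by a synonym. A planned search for promoter motifs and levels per coding length were not run, since sequences were not used here.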

Additional observations from a re-analysis of the deposited data

How the results depend on the processing

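Across all settings, 0 members were called, and the median log2 fold change of the members stayed negative, from -0.19 without mutant replicate 1 to -0.05 without wild-type replicate 3. With the replicate block edgeR called 0 genes and gave a median of -0.12. The count of all genes called was 18 in DESeq2 with the block and 2 in edgeR with the block without pair 2, and 0 in the other settings (range over left-out libraries and pairs 0 to 2). Pomca, prl and pou1f1 stayed negative and tshba positive in every setting run, over left-out libraries and pairs at -0.37 to -0.25 for pomca, -0.22 (without mutant replicate 2) to -0.04 (without wild-type replicate 2) for prl, -0.35 (with the block without pair 1) to -0.09 (without mutant replicate 3) for pou1f1 and 0.20 to 0.43 for tshba. Signs turned for gh1 (range over left-out libraries and pairs -0.20 to 0.0218), for cga (range -0.11 to 0.33, with -0.0486 in the blocked fit without pair 2), for smtla (range -0.41 to 0.26, of single libraries -0.354 to 0.13) and for smtlb (range -1.96 to 1.27, with 0.0804 in the blocked fit without pair 1). In fits that leave out a single library, replicate 1 weighs unequally on the genotypes. All settings reuse the same libraries. The pomca groups did not overlap, so leaving out libraries could hardly turn the sign of pomca. Prl and tshba went the same way in every pair, so leaving out a pair could hardly turn theirs. Smtlb alone exceeded 2-fold in replicate 1 with library totals as the scaling, with no filter and with a prior count of 0.5. At 1 to 8 counts of lhb and 0 to 3 of fshb, depth limits both genes.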
